A study of Mus musculus with 6 samples.

Results

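The genes of cholesterol and fatty acid synthesis were examined in mouse embryonic stem cells (mESCs) grown in serum or in 2i medium. The list holds 36 genes chosen by name for their place in sterol synthesis, its control by SREBP and LXR, and the synthesis and desaturation of fatty acids. They were taken from 53390 genes with a transcript in the deposited files, of which 18177 had enough counts to be tested. All 36 were among the genes tested. Earlier results of these data were known when the list was chosen. The shares given below therefore describe the list and are no independent test of it.

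The study compared RNA from TKO mESCs in 3 TKO-serum and 3 TKO-2i libraries, and so asks what the change of medium does to gene expression in cells without DNA methyltransferases. Every library carried the same deletions, Dnmt1-/-, Dnmt3a-/- and Dnmt3b-/-, in a line made from male J1 mESCs of the 129S4/SvJae strain and grown without feeder cells on gelatin. RNA was poly(A)-selected and sequenced as stranded libraries. The estimated counts of TKO-2i replicates 1, 2 and 3 summed to 46228700, 44180642 and 43896549, and those of TKO-serum replicates 1, 2 and 3 to 38274042, 51932739 and 44827609. TKO-serum cells were kept in DMEM with 15% FCS and LIF at 500 U/ml. TKO-2i cells were kept in N2B27 with 3.3% BSA, a LIF dose of 1000 U/ml and blockers of MEK (PD0325901, 1 µM) and of GSK3 (CHIR99021, 3 µM). The inhibitors, the dose of LIF, the serum and the basal medium all differed between the groups, and their parts cannot be told apart. A single TKO line was used. The labels call the replicates biological but do not say how the cultures were separated, so p-values measure the spread between these samples.

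Cells build cholesterol from acetyl-CoA through mevalonate, farnesyl diphosphate and squalene, and build fatty acids from acetyl-CoA through malonyl-CoA. Both routes are switched on by SREBP transcription factors, which are held in the endoplasmic reticulum by SCAP and INSIG proteins while sterols are plentiful and are cut free when sterols run low. LXR nuclear receptors respond to oxidised sterols and switch on genes for cholesterol export and, among SREBP genes, Srebf1.

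The targeted genes were read from values over whole genes. Dnmt3a lay at 4.3, 5.19 and 4.54 TPM (a share of all transcripts in the library, scaled for transcript length) in TKO-2i and at 21.3, 23.0 and 22.7 TPM in TKO-serum. Dnmt3b lay at 6.71, 9.53 and 8.49 TPM in TKO-2i and at 18.8, 20.9 and 20.7 TPM in TKO-serum. Dnmt1 lay at 29.1, 34.6 and 29.3 TPM in TKO-2i and at 25.7, 28.6 and 27.9 TPM in TKO-serum. Dnmt3a and Dnmt3b were thus lower in TKO-2i, Dnmt1 was slightly higher, and RNA of all 3 was still detected in every library. The deleted exons are not given in the sources used here, and a value over a whole gene can come from the parts that remain, so these levels do not check the deletions.

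Most genes of the list were higher in TKO-2i. When each of the 18177 genes was tested with edgeR (quasi-likelihood, Benjamini-Hochberg), 27 of the 36 (75.0%) were higher at an adjusted p under 0.05, against 31.9% of all genes tested and 37.6% of the 13818 genes tested with a mean of at least 1 TPM. Lower in TKO-2i were 3 members (8.33%), Insig2, Scap and Abcg1, against 30.6% of all genes tested and 27.1% of those with a mean of at least 1 TPM. The other 6, Hmgcs1, Mvd, Idi1, Sqle, Lss and Hsd17b7, did not pass the test. The median log2 fold change of the members (TKO-2i minus TKO-serum, from counts) was 0.41, against 0.01 over all genes tested and 0.07 over those with a mean of at least 1 TPM. The summed level of the list was 2390, 2630 and 2350 TPM in TKO-2i and 1710, 1840 and 1810 TPM in TKO-serum, so every TKO-2i library lay above every TKO-serum library. TKO-2i replicate 2, the highest of these sums, also stood apart from the other TKO-2i libraries over all genes, with a chi-square per gene of 48.1 and 29.3 against replicates 1 and 3, and of 7.51 between those. Without it the median of the members was 0.41, with 28 members higher, 3 lower and 7 higher by at least 2-fold. TKO-serum replicate 2 stood further from TKO-serum replicates 1 and 3 (chi-square per gene of 16.4 and 11.2) than those did from each other (4.78). Without TKO-serum replicate 2, 25 members were higher, 1 was lower (Scap) and 6 were higher by at least 2-fold.

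A rise of at least 2-fold, a log2 fold change of 1 or more at the same adjusted p, was found for 7 members. These were the 4 desaturases Scd1, Scd2, Fads1 and Fads2, the sterol enzymes Tm7sf2 and Ebp, and the transcription factor gene Srebf1. Among all genes tested, 7.72% rose and 15.6% fell by at least 2-fold, and among those with a mean of at least 1 TPM 6.93% rose and 9.76% fell. The lowest log2 fold change of any member was -0.22.

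**Figure D1:**
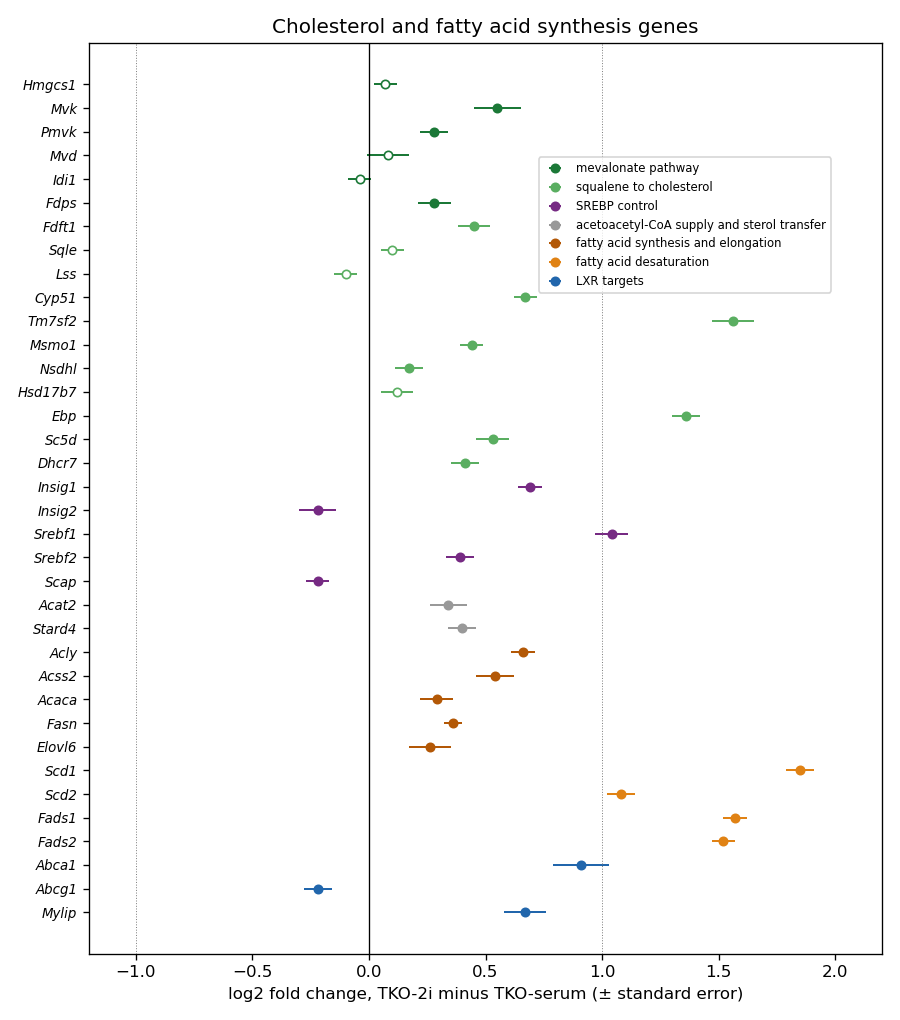
Log2 fold change (TKO-2i minus TKO-serum, x axis) of the 36 members, coloured by role, with bars of 1 standard error; filled points passed the test at an adjusted p under 0.05, open points did not, and dotted lines mark a 2-fold difference. The 4 desaturases, Tm7sf2, Ebp and Srebf1 lie to the right of the 2-fold line, from 1.04 for Srebf1 to 1.85 for Scd1.

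Fatty acid desaturation was the role with the largest differences. Its 4 members put double bonds into fatty acyl chains, and their median log2 fold change was 1.54. Their summed level was 555, 672 and 555 TPM in TKO-2i and 248, 277 and 262 TPM in TKO-serum. TKO-2i replicate 2 was the highest of the 6 libraries for each of the 4 genes, and the groups did not overlap for any of them.

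Scd1 encodes a stearoyl-CoA desaturase, which makes monounsaturated from saturated fatty acids (ENSMUSG00000037071, GRCm38 chr19:44394455-44407879, minus strand). Its level was 75.5, 90.5 and 74.5 TPM in TKO-2i and 21.5, 25.2 and 23.9 TPM in TKO-serum. The means were 80.1 ± 8.94 and 23.5 ± 1.85 TPM (SD, n = 3 each), and the log2 fold change of 1.85 (SE 0.06, edgeR adjusted p = 1.4e-07) was the largest of the list. The lowest TKO-2i library lay far above the highest TKO-serum library.

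Scd2 encodes a related stearoyl-CoA desaturase and was the most abundant member of the list (ENSMUSG00000025203, chr19:44293674-44306864, plus strand). It lay at 344, 428 and 348 TPM in TKO-2i and at 176, 199 and 186 TPM in TKO-serum, with means of 373 ± 47.5 and 187 ± 11.4 TPM (SD, n = 3 each). Its log2 fold change was 1.08 (SE 0.06, edgeR adjusted p = 1e-06), and 0.99 with limma on log2(TPM + 1). Scd2 was thus more abundant than Scd1 in both media, while the difference between media was larger for Scd1. On the same stretch of chromosome 19, Scd3 lay between 0.637 and 0.792 TPM in the 6 libraries and did not pass the test (log2 fold change -0.04, SE 0.12), and Scd4 lay between 0.0363 and 0.113 TPM and was not tested.

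Fads1 and Fads2 encode the desaturases that make long polyunsaturated fatty acids from shorter precursors. Fads1 (ENSMUSG00000010663, chr19:10182888-10196877, plus strand) lay at 53.4, 60.0 and 51.6 TPM in TKO-2i and at 18.6, 20 and 20.4 TPM in TKO-serum. Its means were 55.0 ± 4.38 and 19.7 ± 0.954 TPM (SD, n = 3 each) and its log2 fold change was 1.57 (SE 0.05, edgeR adjusted p = 1.1e-07). All 3 TKO-2i libraries were high and all 3 TKO-serum libraries low.

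Fads2 (ENSMUSG00000024665, chr19:10062765-10101746, minus strand) lies beside Fads1 and moved by a similar amount. Its level was 82.6, 93.3 and 80.5 TPM in TKO-2i and 31.8, 32.8 and 31.7 TPM in TKO-serum. The means were 85.5 ± 6.85 and 32.1 ± 0.584 TPM (SD, n = 3 each), and the log2 fold change was 1.52 (SE 0.05, edgeR adjusted p = 1.4e-07). A neighbour of this family, Fads3, was low and went the other way (it was named after its values were seen), with 0.0979, 0.0956 and 0.0943 TPM in TKO-2i and 0.495, 0.388 and 0.509 TPM in TKO-serum (log2 fold change -2.16, SE 0.24, edgeR adjusted p = 8.7e-05). Chromosome 19, which holds all of these desaturase genes, had a median log2 fold change of 0.02 over 544 genes tested.

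The annotation gives Scd1, Scd2, Fads1 and Fads2 a single transcript each in the files, so their values do not depend on how reads were divided between transcripts of the gene. Of the stretches of 31 bases in the transcript of Scd1, 8.18% also occur in transcripts of another gene, and the share was 6.86% for Scd2. Most of these shared stretches were shared with Scd3. For Fads2 the share was 0.769%, with Fads3.

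Fatty acid synthesis and elongation rose by less. All 5 members were higher, against 31.9% of all genes tested and 37.6% of those with a mean of at least 1 TPM. Their median log2 fold change was 0.36, with a summed level of 503, 573 and 503 TPM in TKO-2i against 400, 437 and 427 TPM in TKO-serum. Acly encodes ATP citrate lyase, which splits citrate into the acetyl-CoA used by both pathways, and was the most abundant of the 5 (ENSMUSG00000020917, chr11:100476353-100528000, minus strand). Its level was 275, 300 and 270 TPM in TKO-2i and 207, 218 and 216 TPM in TKO-serum. The log2 fold change was 0.66 (SE 0.05, edgeR adjusted p = 5.4e-06), and each TKO-2i library was above each TKO-serum library. It was smaller with length-scaled TPM counts (0.49) and with limma on log2(TPM + 1) (0.40), and was called in both.

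Acss2, which makes acetyl-CoA from acetate, lay at 6.34 to 7.83 TPM in TKO-2i and at 5.19 to 5.66 TPM in TKO-serum, with a log2 fold change of 0.54 (SE 0.08). Fasn, the synthase that builds palmitate, lay at 150 to 171 TPM in TKO-2i and at 123 to 138 TPM in TKO-serum (log2 fold change 0.36, SE 0.04). The groups did not overlap for either gene. They did overlap in TPM for Acaca, which makes malonyl-CoA, with 29.6 to 40.8 TPM in TKO-2i and 28.4 to 33.7 TPM in TKO-serum (log2 fold change 0.29, SE 0.07). They also overlapped for Elovl6, which lengthens palmitate, with 37.3 to 53.4 TPM in TKO-2i and 36.5 to 43.3 TPM in TKO-serum (log2 fold change 0.26, SE 0.09, edgeR adjusted p = 0.041). The calls for Acaca and Elovl6 were lost when TPM values were tested with limma on log2(TPM + 1), where the log2 fold changes were 0.13 and 0.12. The call for Elovl6 was also lost with at least 10 counts in every sample and with length-scaled TPM counts (0.22 each) and without any single TKO-serum library (0.23 to 0.28). Without TKO-2i replicate 2, the library with its highest level, the call was kept but the log2 fold change was 0.13.

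Acly, Acaca, Fasn and Srebf1 lie on chromosome 11, where the median log2 fold change over 1399 genes tested was 0.26. The differences from that median, in the fit to counts, were 0.39 for Acly, 0.78 for Srebf1, 0.10 for Fasn and 0.03 for Acaca. The values of Fasn and Acaca were therefore close to that of a typical gene of their chromosome. Chromosome 13, with Hmgcs1, Idi1 and Mylip, had a median of -0.11, and chromosome 14, with Fdft1, had a median of -0.15. What part the chromosome has in these values was not tested.

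The share of each transcript in the TPM of Acly differed between the media. The transcript Acly-203, which codes for protein, held 55.9%, 51.8% and 52.9% of the gene's TPM in TKO-2i and 45.4%, 45.2% and 42.3% in TKO-serum. Acly-204, annotated as a processed transcript with no protein, held 3.47%, 2.69% and 4.05% in TKO-2i and 14.8%, 13.3% and 14.0% in TKO-serum. Neither share overlapped between groups, and the shares were not tested. The most abundant transcript of Fasn held 61.7% to 71.7% in TKO-2i and 66.6% to 71.1% in TKO-serum, with overlap. The share of Acaca-201, the main transcript of its gene, was 60.0% to 64.9% in TKO-2i and 56.1% to 63.6% in TKO-serum, also with overlap. Elovl6-201 held between 89.7% and 95.0% of the TPM of Elovl6 in TKO-2i, against 85.0% to 87.9% in TKO-serum.

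The sterol pathway was read in its early and late steps, against 31.9% of all genes tested and 37.6% of those with a mean of at least 1 TPM that were higher. Of the 6 genes of the mevalonate pathway 3 (50.0%) were higher in TKO-2i, with a median log2 fold change over the 6 of 0.18. Their summed level was 446, 455 and 430 TPM in TKO-2i and 402, 437 and 424 TPM in TKO-serum, and the groups overlapped. Of the 11 genes from squalene to cholesterol 8 (72.7%) were higher, with a median of 0.44. Their summed level was 462, 474 and 444 TPM in TKO-2i and 345, 354 and 359 TPM in TKO-serum, with no overlap. Whether the early and late steps differ was not tested.

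Fdps, which makes farnesyl diphosphate, was the most abundant gene of the mevalonate pathway (ENSMUSG00000059743, chr3:89093588-89101959, minus strand). Its level was 183, 176 and 177 TPM in TKO-2i and 152, 157 and 158 TPM in TKO-serum, with a log2 fold change of 0.28 (SE 0.07, edgeR adjusted p = 0.0084). The groups did not overlap, but the call was lost without TKO-2i replicate 3, at a log2 fold change of 0.25. Its value is uncertain for a further reason, since 85.7% of the stretches of 31 bases in its main transcript also occur in transcripts of other genes, most of them in Gm43738, an annotated gene that overlaps Fdps on the same strand (mean 0.196 TPM).

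Mvk and Pmvk, which add phosphate groups to mevalonate, were also higher. Mvk lay at 22.0 to 24.5 TPM in TKO-2i and at 16.1 to 17.8 TPM in TKO-serum (log2 fold change 0.55, SE 0.10). Pmvk lay at 37.4 to 38.6 TPM in TKO-2i and at 32.2 to 34.9 TPM in TKO-serum (log2 fold change 0.28, SE 0.06, and 0.17 with limma on log2(TPM + 1)). Neither gene overlapped between the groups. Hmgcs1, which makes HMG-CoA at the start of the pathway, lay at 115 to 131 TPM in TKO-2i and at 115 to 134 TPM in TKO-serum (log2 fold change 0.07, SE 0.05). Mvd, which makes isopentenyl diphosphate, lay at 23.6 to 24.5 TPM in TKO-2i and at 23.5 to 25.8 TPM in TKO-serum (log2 fold change 0.08, SE 0.09). Idi1, the isomerase of that product, lay at 54.4 to 62.6 TPM in TKO-2i and at 61.6 to 67.7 TPM in TKO-serum (log2 fold change -0.04, SE 0.05). These 3 genes did not pass the test and overlapped between groups, and the sign for Hmgcs1 and Mvd turned with limma on log2(TPM + 1), at -0.04 and -0.05.

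Among the genes from squalene to cholesterol, Tm7sf2 had the largest difference. It encodes a sterol reductase that acts after lanosterol loses its first methyl group (ENSMUSG00000024799, chr19:6062821-6068373, minus strand). Its level was 26.0, 26.8 and 28.2 TPM in TKO-2i and 9.73, 9.81 and 11.6 TPM in TKO-serum. The means were 27.0 ± 1.12 and 10.4 ± 1.07 TPM (SD, n = 3 each), and the log2 fold change was 1.56 (SE 0.09, edgeR adjusted p = 2e-06). The gene stood high in all 3 TKO-2i libraries and low in all 3 TKO-serum libraries. Its main transcript Tm7sf2-201 held 45.9% to 60.1% of its TPM in TKO-2i and 41.0% to 50.8% in TKO-serum. Tm7sf2 overlaps Vps51 on the same strand, which had a mean of 21.6 TPM, against 18.7 TPM for Tm7sf2, and a log2 fold change of 0.39. Of the stretches of 31 bases in Tm7sf2-201, 0.0% occur in transcripts of another gene, and its other transcripts were not searched.

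Ebp encodes the isomerase that moves a double bond in the sterol ring (ENSMUSG00000031168, chrX:8185329-8193512, minus strand). Its level was 53.9, 48.1 and 50.7 TPM in TKO-2i and 19.1, 15.0 and 19.3 TPM in TKO-serum. The means were 50.9 ± 2.9 and 17.8 ± 2.45 TPM (SD, n = 3 each), and the log2 fold change was 1.36 (SE 0.06, edgeR adjusted p = 4.8e-07). The groups were far apart. The division between transcripts of Ebp was unsteady, since the retained-intron transcript Ebp-204 held 41.8%, 31.7% and 37.2% of its TPM in TKO-2i and 36%, 0.0% and 33.7% in TKO-serum. TKO-serum replicate 2, where that transcript was given 0.0%, was also the library with the lowest TPM of the gene. The fold change rests on counts summed over the transcripts and was 1.62 with counts from length-scaled TPM.

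Msmo1, which removes methyl groups from sterols, was the most abundant gene of these 11 (ENSMUSG00000031604, chr8:64718139-64733792, minus strand). Its level was 106, 116 and 99.2 TPM in TKO-2i and 81.0, 83.8 and 84.2 TPM in TKO-serum, with a log2 fold change of 0.44 (SE 0.05, edgeR adjusted p = 0.00013). Each TKO-2i library was above each TKO-serum library. The lanosterol demethylase gene Cyp51 lay at 33.9 to 38.0 TPM in TKO-2i and at 23.6 to 25.0 TPM in TKO-serum (log2 fold change 0.67, SE 0.05). Sc5d, a sterol desaturase, lay at 11.6 to 13.8 TPM in TKO-2i and at 7.9 to 9.81 TPM in TKO-serum (log2 fold change 0.53, SE 0.07).

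Fdft1, which encodes squalene synthase at the branch into sterols, lay at 69.4 to 71.7 TPM in TKO-2i and at 55.8 to 57.6 TPM in TKO-serum (log2 fold change 0.45, SE 0.07). Dhcr7, the reductase of a last step to cholesterol, lay at 52.9 to 57.4 TPM in TKO-2i and at 44.5 to 47.8 TPM in TKO-serum (log2 fold change 0.41, SE 0.06, and 0.23 with limma on log2(TPM + 1)). Neither gene overlapped between the groups. Nsdhl, a sterol dehydrogenase, lay at 21.7 to 22.6 TPM in TKO-2i and at 20.5 to 21.4 TPM in TKO-serum (log2 fold change 0.17, SE 0.06, edgeR adjusted p = 0.038). The call for Nsdhl was close to the threshold and was lost in 11 of the 14 alternatives, among them DESeq2 (0.15), limma on log2(TPM + 1) (0.08) and the fits without TKO-2i replicate 1 (0.11) or 3 (0.14) or without any single TKO-serum library (0.16 to 0.18).

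The other 3 genes of this stretch did not pass the test. Sqle, which adds oxygen to squalene, lay at 44.8 to 49.0 TPM in TKO-2i and at 44.9 to 48.3 TPM in TKO-serum (log2 fold change 0.10, SE 0.05). Hsd17b7, a sterol ketone reductase, lay at 6.56 to 8.59 TPM in TKO-2i and at 6.88 to 7.91 TPM in TKO-serum (log2 fold change 0.12, SE 0.07). Both overlapped between the groups. Lss, which closes the rings to form lanosterol, lay lower in TKO-2i in TPM, with 24.2 to 26.5 TPM against 29.8 to 31.1 TPM in TKO-serum. From counts its log2 fold change was -0.10 (SE 0.05), which did not pass the test, while limma on log2(TPM + 1) gave -0.28 and called it lower. It was also called lower with at least 10 counts required in every sample, at -0.14, and with a replicate block, at -0.10.

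**Figure D2:**
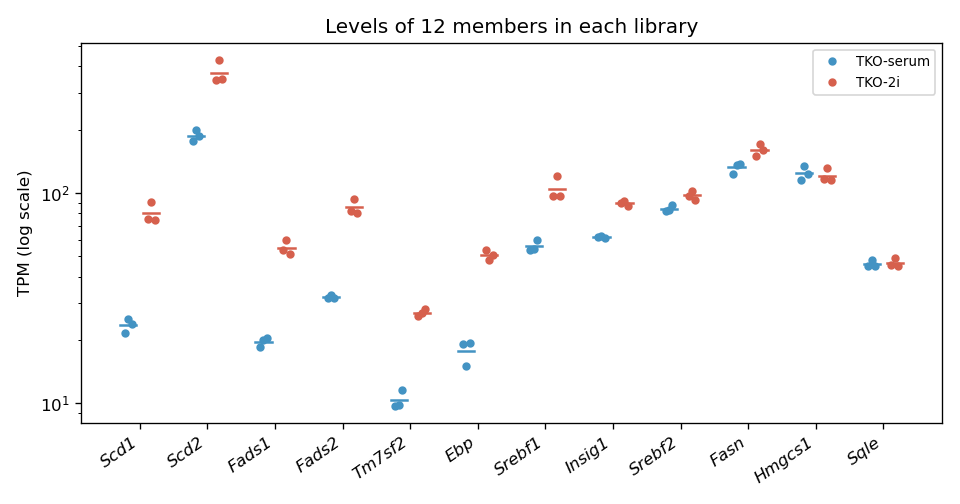
Levels in TPM (log scale, y axis) of 12 members in each of the 6 libraries; points are libraries, bars are group means, blue is TKO-serum and red is TKO-2i. The groups lie apart for the 4 desaturases, Tm7sf2, Ebp, Srebf1, Insig1, Srebf2 and Fasn, and overlap for Hmgcs1 and Sqle.

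The genes that control SREBP did not move in a single direction. Of the 5, Srebf1, Insig1 and Srebf2 were higher in TKO-2i (60.0%, against 31.9% of all genes tested), and Insig2 and Scap were lower (40.0%, against 30.6%). Srebf1 encodes SREBP-1, which acts mainly on fatty acid genes (ENSMUSG00000020538, chr11:60199089-60222581, minus strand). Its level was 96.4, 120 and 96.5 TPM in TKO-2i and 53.7, 54.5 and 60.0 TPM in TKO-serum, with means of 104 ± 13.5 and 56.1 ± 3.43 TPM (SD, n = 3 each). The groups were apart, and the log2 fold change was 1.04 (SE 0.07, edgeR adjusted p = 3.3e-06). It was under the 2-fold line with length-scaled TPM counts (0.98), with limma on log2(TPM + 1) (0.88) and without TKO-serum replicate 2 (0.99), among others, and stayed past the test's threshold in each of these.

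Srebf2 encodes SREBP-2, which acts mainly on sterol genes (ENSMUSG00000022463, chr15:82147181-82205379, plus strand). Its level was 97.0, 102 and 93.2 TPM in TKO-2i and 82.0, 82.7 and 87.9 TPM in TKO-serum, with means of 97.4 ± 4.39 and 84.2 ± 3.2 TPM (SD, n = 3 each). The log2 fold change was 0.39 (SE 0.06, edgeR adjusted p = 0.00049). The groups did not overlap, but the gap between the nearest libraries was small. The value was 0.31 with length-scaled TPM counts and 0.21 with limma on log2(TPM + 1), and was called in both. In TKO-2i the ranges of Srebf1 and Srebf2 overlapped in TPM, and in TKO-serum Srebf2 was above Srebf1 in every library.

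Insig1 encodes the INSIG protein that is itself a target of SREBP (ENSMUSG00000045294, chr5:28071363-28078662, plus strand). Its level was 89.9, 91.6 and 87.1 TPM in TKO-2i and 61.8, 62.2 and 60.9 TPM in TKO-serum. The means were 89.5 ± 2.25 and 61.6 ± 0.675 TPM (SD, n = 3 each), and the log2 fold change was 0.69 (SE 0.05, edgeR adjusted p = 1e-05). The libraries of each medium lay close together and the groups lay well apart.

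Insig2, the other INSIG gene, was much less abundant (ENSMUSG00000003721, chr1:121304353-121332589, minus strand). Its level was 8.46, 11.2 and 10.5 TPM in TKO-2i and 9.34, 12.1 and 14.0 TPM in TKO-serum, with a log2 fold change of -0.22 (SE 0.08, edgeR adjusted p = 0.035). The groups overlapped. The call was lost with length-scaled TPM counts (-0.14), with limma on log2(TPM + 1) (-0.20), without TKO-2i replicate 1 (-0.17) and without any single TKO-serum library (-0.22 to -0.21).

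Scap encodes the escort protein that carries SREBP to the Golgi (ENSMUSG00000032485, chr9:110333288-110384950, plus strand). Its level was 18.3, 21.3 and 19.8 TPM in TKO-2i and 21.5, 24.8 and 23.8 TPM in TKO-serum, with means of 19.8 ± 1.51 and 23.4 ± 1.67 TPM (SD, n = 3 each). The log2 fold change was -0.22 (SE 0.05, edgeR adjusted p = 0.0048). The highest TKO-2i library was just below the lowest TKO-serum library.

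The starts of Srebf1 were taken apart, since starts of this gene give proteins that differ at one end. Transcripts that begin within 100 bases of the RefSeq start at chr11 position 60220627 held 34.5, 38.8 and 37.2 TPM in TKO-2i and 18.5, 19.2 and 20.2 TPM in TKO-serum. Transcripts from the downstream start at 60210471 held 18.3, 19.9 and 16.7 TPM in TKO-2i and 7.83, 8.33 and 8.73 TPM in TKO-serum. Both starts were higher in each TKO-2i library than in any TKO-serum library. Their shares of the gene's TPM were 35.3% and 17.5% in TKO-2i and 34.4% and 14.8% in TKO-serum. A non-coding transcript from the most upstream start, 60222581, held 11.0% in TKO-2i and 6.35% in TKO-serum, and transcripts that begin elsewhere held 36.2% and 44.4%. These shares were not tested.

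Retained-intron transcripts held a smaller share of Insig1 and Srebf2 in TKO-2i. Insig1-202 held 6.25%, 7.68% and 8.14% of the TPM of Insig1 in TKO-2i and 12.7%, 13.8% and 12.6% in TKO-serum. A retained-intron transcript of Srebf2 held 20.6%, 19.3% and 19.0% of the gene's TPM in TKO-2i and 27.1%, 24.4% and 24.4% in TKO-serum. Neither share overlapped between groups, and neither was tested. Retained-intron transcripts of other members differed in direction. In Lss, such a transcript had a mean share of 7.15% in TKO-2i and 4.98% in TKO-serum, and another 10.3% and 15.8%. The shares of Insig1 and Srebf2 therefore do not stand for the list. For Insig2, the main transcript Insig2-201 held 69.2% to 76.7% in TKO-2i and 63.2% to 97.2% in TKO-serum, with overlap.

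Acat2, which joins acetyl-CoA units ahead of Hmgcs1, and Stard4, a carrier of sterols between membranes, were both higher in TKO-2i. Acat2 (ENSMUSG00000023832, chr17:12942890-12960747, minus strand) lay at 79.3, 76.2 and 77.0 TPM in TKO-2i and at 65.3, 65.5 and 64.0 TPM in TKO-serum, with a log2 fold change of 0.34 (SE 0.08, edgeR adjusted p = 0.0043). Stard4 lay at 23.6 to 26.8 TPM in TKO-2i and at 18.6 to 21.1 TPM in TKO-serum (log2 fold change 0.40, SE 0.06). Neither gene overlapped between the groups. The level of Acat2 is uncertain, since 50.5% of the stretches of 31 bases in its main transcript also occur in its near copy Acat3, which was given a mean of 0.208 TPM.

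Other members share sequence with copies too. The share of such stretches was 59.9% for Acaca, all of them in Gm5182 (mean 2.48 TPM), 22.2% for Idi1, most of them in Gm13502 (mean 7.04 TPM), and 21.3% for Fdft1, in Gm6781 (mean 0.0197 TPM). Some members run against a gene on the opposite strand. The main transcript of Fdft1 was complementary to transcripts of Ctsb over 26.2% of its stretches, and Ctsb had a mean of 75.6 TPM and a log2 fold change of 1.33. Acat2 was complementary to Tcp1 over 15.3% (mean 759 TPM), and Acss2 to Ggt7 over 5.79% (mean 3.31 TPM). The span of Acss2 also overlaps Gss on the opposite strand, which had a mean of 51.0 TPM, well above that of Acss2 (6.33 TPM), and a log2 fold change of 2.12. The libraries were stranded, but whether the counting used the strand is not given in the sources used here, so the values of these genes are uncertain.

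The LXR targets were at low levels and differed in direction. Abcg1, an exporter of cholesterol, was the most abundant of the 3 and was lower in TKO-2i (ENSMUSG00000024030, chr17:31057675-31117988, plus strand). Its level was 3.55, 4.32 and 3.56 TPM in TKO-2i and 4.48, 5.01 and 4.72 TPM in TKO-serum, with a log2 fold change of -0.22 (SE 0.06, edgeR adjusted p = 0.015). The groups did not overlap, but the call was lost without TKO-serum replicate 2 (-0.21) and with limma on log2(TPM + 1) (-0.26). Abca1, which also exports cholesterol, was higher, with 1.18 to 1.7 TPM in TKO-2i and 0.702 to 0.918 TPM in TKO-serum (log2 fold change 0.91, SE 0.12, and 0.42 with limma on log2(TPM + 1)). Mylip, whose protein marks lipoprotein receptors for breakdown, was higher, with 2.81 to 3.46 TPM in TKO-2i and 1.96 to 2.21 TPM in TKO-serum (log2 fold change 0.67, SE 0.09, and 0.41 with limma on log2(TPM + 1)).

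The other genes of these pathways were read from 7 further lists of 124 genes, of which 120 were tested. Of these, 52 (43.3%) were higher and 32 (26.7%) lower in TKO-2i, with a median log2 fold change of 0.09, so the further lists lay nearer to all genes tested than the 36 members did. Over all genes tested 31.9% were higher and 30.6% lower, and over those with a mean of at least 1 TPM 37.6% and 27.1%. The further lists, too, were chosen with earlier results of these data known. In each list the gene with the largest rise and the gene with the largest fall among those that passed the test with a mean of at least 1 TPM are given. The opposite directions within each pair follow from this choice.

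In the non-sterol branches of the mevalonate pathway 3 of 11 genes (27.3%) were higher and 2 (18.2%) lower, both below the shares over all genes tested (31.9% and 30.6%). Pdss1, which builds the side chain of ubiquinone, lay at 27.8 to 32.6 TPM in TKO-2i and at 18.2 to 21.8 TPM in TKO-serum (log2 fold change 0.68, SE 0.06). Ggps1, which makes geranylgeranyl diphosphate from the product of Fdps, lay at 13.3 to 15.0 TPM in TKO-2i and at 18.2 to 20.2 TPM in TKO-serum (log2 fold change -0.49, SE 0.06). The groups did not overlap for either. In the processing of SREBP and the turnover of INSIG 4 of 10 genes (40.0%) were higher, near the 37.6% of genes with a mean of at least 1 TPM, and 1 (10%) lower. Erlin2, part of a membrane complex that takes part in INSIG turnover, lay at 38.1 to 44.5 TPM in TKO-2i and at 29.2 to 30.8 TPM in TKO-serum (log2 fold change 0.62, SE 0.05). Rnf145, a ubiquitin ligase of the endoplasmic reticulum, lay at 28.4 to 34 TPM in TKO-2i and at 39.9 to 44.8 TPM in TKO-serum (log2 fold change -0.37, SE 0.05).

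Sterol storage, oxidation, uptake and transport was the further list with the most genes lower in TKO-2i, 12 of the 21 tested (57.1%, against 30.6% of all genes tested), with a median of -0.31. Its summed level went the other way, with 387, 396 and 375 TPM in TKO-2i and 290, 307 and 310 TPM in TKO-serum. The 8 that were higher (38.1%) lay near the share over all genes tested (31.9%) and over those with a mean of at least 1 TPM (37.6%). Scarb1, a receptor for high-density lipoprotein, lay at 38.5, 38.3 and 36.3 TPM in TKO-2i and at 15.2, 16.5 and 17.1 TPM in TKO-serum (log2 fold change 1.31, SE 0.07, edgeR adjusted p = 1e-06). Lrp2, a large receptor for lipoproteins and other ligands, lay at 1.19, 1.85 and 1.13 TPM in TKO-2i and at 9.14, 11.4 and 10.4 TPM in TKO-serum (log2 fold change -2.88, SE 0.13, edgeR adjusted p = 5.4e-07). Both differences were many times the spread between libraries. Of the 22 genes, Ch25h had too few counts to be tested.

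Among LXR receptors and further LXR targets 5 of 10 genes (50.0%) were higher and 2 (20%) lower, against 31.9% and 30.6% of all genes tested and 37.6% and 27.1% of those with a mean of at least 1 TPM. Lpcat3, which puts polyunsaturated chains into phospholipids, lay at 42.1 to 49.9 TPM in TKO-2i and at 28.0 to 30.6 TPM in TKO-serum (log2 fold change 0.76, SE 0.05), on chromosome 6, whose median was 0.41. Arl4c, a small GTPase gene, lay at 0.781 to 1.04 TPM in TKO-2i and at 1.72 to 2.02 TPM in TKO-serum (log2 fold change -0.95, SE 0.11, and -0.60 with limma on log2(TPM + 1)). The receptor Nr1h2 lay at 62.8 to 71.5 TPM in TKO-2i and at 54.6 to 59.7 TPM in TKO-serum (log2 fold change 0.48, SE 0.08), while the other LXR, Nr1h3, stayed under 1 TPM in all 6 libraries. The LXR genes were singled out after their values were seen.

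Other fatty acid synthesis, elongation and activation had 12 of 26 genes tested (46.2%) higher and 6 (23.1%) lower, with a median of 0.14. These shares lay near the 37.6% and 27.1% of genes with a mean of at least 1 TPM. Elovl7, which lengthens long fatty acids, lay at 6.49, 8.53 and 6.6 TPM in TKO-2i and at 1.88, 2.42 and 2.38 TPM in TKO-serum (log2 fold change 1.75, SE 0.09, edgeR adjusted p = 1.1e-06). Elovl2, which lengthens polyunsaturated fatty acids, lay at 1.67, 2.0 and 1.54 TPM in TKO-2i and at 3.25, 4.26 and 3.84 TPM in TKO-serum (log2 fold change -1.05, SE 0.11, edgeR adjusted p = 5.5e-05). Among the other elongase genes called in this list, Elovl4 was lower (log2 fold change -1.02, SE 0.09) and Elovl5 slightly higher (0.14, SE 0.05). Of the 28 genes, Elovl3 and Scd4 had too few counts to be tested.

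Glycerolipid synthesis and lipid droplets had 7 of 18 genes (38.9%) higher and 4 (22.2%) lower, with a median of -0.02, so the share higher was close to the 37.6% of genes with a mean of at least 1 TPM. Agpat2 and Agpat4 encode enzymes that add an acyl chain to lysophosphatidic acid. Agpat2 lay at 48.6, 50.4 and 47.2 TPM in TKO-2i and at 25.0, 25.5 and 26.5 TPM in TKO-serum (log2 fold change 1.02, SE 0.08, edgeR adjusted p = 7e-06). Agpat4 lay at 0.618, 0.865 and 1.08 TPM in TKO-2i and at 10.9, 10.6 and 10.3 TPM in TKO-serum (log2 fold change -3.62, SE 0.13, edgeR adjusted p = 1.4e-07). The groups did not overlap for either. Of the other genes of this family in the list, Agpat1 and Agpat3 were higher (log2 fold change 0.75 and 0.62). Agpat5 did not pass the test (-0.15).

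Fatty acid beta-oxidation had 13 of 24 genes tested higher and 5 lower, with a median of 0.17. The shares were 54.2% and 20.8%, against 31.9% and 30.6% of all genes tested and 37.6% and 27.1% of those with a mean of at least 1 TPM, and the difference was not tested. Cpt1a, which loads fatty acids for entry into mitochondria, lay at 36.7, 42.5 and 34 TPM in TKO-2i and at 14.7, 16.2 and 16.0 TPM in TKO-serum (log2 fold change 1.36, SE 0.06, edgeR adjusted p = 3.2e-07). Its muscle form Cpt1b was less abundant and lower, with 1.67, 2.24 and 1.87 TPM in TKO-2i and 3.65, 3.06 and 5.44 TPM in TKO-serum (log2 fold change -0.81, SE 0.13, edgeR adjusted p = 0.00071). Of the 25 genes, Ppargc1a had too few counts to be tested.

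**Figure D3:**
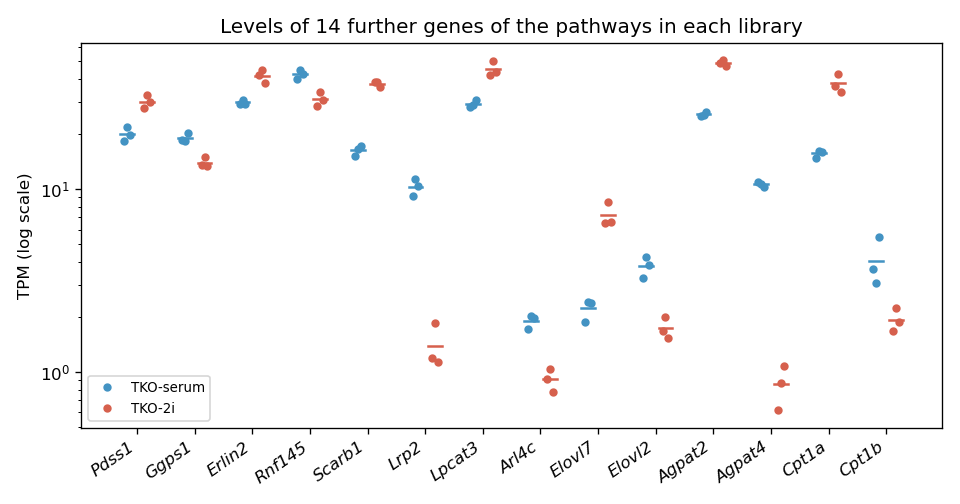
Levels in TPM (log scale, y axis) of the 14 genes named by rule from the 7 further lists, a rise and a fall from each, in each of the 6 libraries; points are libraries, bars are group means, blue is TKO-serum and red is TKO-2i. No gene overlaps between the groups, which the choice of the largest called differences makes likely, and the largest gaps are those of Agpat4 and Lrp2.

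Markers of mESCs and of other cell types were read beside these results, with 31.9% of all genes tested higher and 30.6% lower. The 8 mESC markers summed to 5500, 5030 and 4990 TPM in TKO-2i and to 6340, 6010 and 6120 TPM in TKO-serum, with Dppa5a the most abundant, 2 higher and 4 lower. The 10 markers of fibroblasts and feeder cells summed to 6.54, 7.27 and 6.35 TPM in TKO-2i and to 12.2, 13.7 and 12.8 TPM in TKO-serum, with Twist1 the most abundant, 4 of 5 tested lower, Twist2 at 0 in all 3 TKO-2i libraries and Col3a1, Lum, Dcn and Postn near 0 in both media. Both media thus held high levels of mESC markers and low levels of fibroblast markers.

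Markers of primitive and visceral endoderm were lower in TKO-2i for 6 of 8 tested genes. The 10 genes of that list summed to 5.19, 6.1 and 5.5 TPM in TKO-2i and to 17, 19.9 and 22.1 TPM in TKO-serum, with Dab2 the most abundant and Ttr at 0 in all 3 TKO-2i libraries. The 6 markers of neural progenitors summed to 90.4, 91.3 and 88.0 TPM in TKO-2i and to 140, 144 and 141 TPM in TKO-serum, with Tubb3 the most abundant, 5 lower and 1 higher. The summed levels of the endoderm and neural lists were therefore lower in TKO-2i.

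The 6 mesoderm markers summed to 2.65, 2.53 and 2.21 TPM in TKO-2i and to 4.32, 4.74 and 3.97 TPM in TKO-serum, with Mixl1 the most abundant, 3 of 5 tested lower and Actc1 at 0 in all 3 TKO-2i libraries. The 6 trophoblast markers summed to 81.0, 75.8 and 77.6 TPM in TKO-2i and to 47.6, 46.9 and 45.2 TPM in TKO-serum, with Krt8 the most abundant, 3 higher and 2 lower. The part of any of these cell types in the differences of the lipid genes was not tested. In bulk libraries, fewer cells of a type and less RNA per cell cannot be told apart.

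Promoters were read for the members with a window at hand, whether or not they passed the test. RefSeq promoter windows of GRCm38.p6, from 250 bases before to 50 bases after a start, were at hand for 28 of the 36 members and were not at hand for Scd1, Scd2, Fads1, Sqle, Abcg1, Fdft1, Fdps and Stard4. For a gene with several starts, the window nearest the start of its most abundant transcript was used. This start lay within 100 bases of that of the window for 22 of the 28 members and up to 588 bases away for the others, so some windows may not be those of the transcripts measured. The following letters were searched on both strands. The sterol regulatory element, bound by SREBP and searched only as TCACNCCAC, was found in 1 of the 28 windows, that of Hmgcs1. It was found in 1.24% of all 32851 windows. The CCAAT box, searched as these letters, was found in 19 of the 28 (67.9%) and in 37.4% of all windows, and the GC box GGGCGG in 24 of the 28 (85.7%) and in 35.7% of all windows. The E-box CACGTG was found in 5 of the 28 (17.9%) and in 7.15% of all windows. The pair of half-sites that LXR binds, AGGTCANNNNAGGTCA, was found in 0.0152% of all windows and in no member's window. These matches describe letters in the windows, and their share was not tested against other genes. The 32851 windows cover 27025 genes, more than the 18177 tested, and no share over expressed genes alone was taken.

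The windows of Tm7sf2 and Ebp, the sterol genes with the largest rises, and of Acly are shown, 5′ to 3′ on the strand of the gene, with CCAAT boxes and GC boxes of either strand in capitals. They lie at chr19:6067801-6068100 (minus strand) for Tm7sf2, chrX:8193463-8193762 (minus strand) for Ebp and chr11:100527951-100528250 (minus strand) for Acly. Tm7sf2 and Ebp each hold a CCAAT box on the reverse strand within 60 bases before the start, at -47 and -55, and the CCAAT box of Acly lies after the start, at 38.
Tm7sf2: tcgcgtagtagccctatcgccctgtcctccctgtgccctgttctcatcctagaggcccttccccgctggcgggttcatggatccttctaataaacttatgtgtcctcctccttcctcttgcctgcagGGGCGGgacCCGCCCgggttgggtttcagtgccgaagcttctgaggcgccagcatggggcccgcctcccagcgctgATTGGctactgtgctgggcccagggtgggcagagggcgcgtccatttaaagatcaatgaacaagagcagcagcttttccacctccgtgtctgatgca
Ebp: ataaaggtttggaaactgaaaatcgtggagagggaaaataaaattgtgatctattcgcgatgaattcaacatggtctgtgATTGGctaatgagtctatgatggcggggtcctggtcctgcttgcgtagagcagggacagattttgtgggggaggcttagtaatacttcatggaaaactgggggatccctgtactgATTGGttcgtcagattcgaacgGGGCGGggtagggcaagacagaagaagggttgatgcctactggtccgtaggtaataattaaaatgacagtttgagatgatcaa
Acly: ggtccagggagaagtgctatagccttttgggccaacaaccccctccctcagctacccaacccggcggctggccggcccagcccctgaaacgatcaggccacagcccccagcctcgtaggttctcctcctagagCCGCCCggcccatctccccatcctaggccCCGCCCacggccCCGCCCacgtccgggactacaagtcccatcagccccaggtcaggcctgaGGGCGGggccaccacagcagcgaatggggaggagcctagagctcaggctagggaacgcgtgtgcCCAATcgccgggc

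The RefSeq start of Fads2 lies 243 bases inside its transcript as annotated by GENCODE, so its window is mostly transcript and is not shown. The window of Hmgcs1, which did not pass the test, is also shown. This window alone of the 28 held the letters searched for the sterol regulatory element, and it was chosen after this was seen. It lies at chr13:119690101-119690400 (plus strand), and the capitals mark the sterol regulatory element at -137, CCAAT boxes and GC boxes.
Hmgcs1: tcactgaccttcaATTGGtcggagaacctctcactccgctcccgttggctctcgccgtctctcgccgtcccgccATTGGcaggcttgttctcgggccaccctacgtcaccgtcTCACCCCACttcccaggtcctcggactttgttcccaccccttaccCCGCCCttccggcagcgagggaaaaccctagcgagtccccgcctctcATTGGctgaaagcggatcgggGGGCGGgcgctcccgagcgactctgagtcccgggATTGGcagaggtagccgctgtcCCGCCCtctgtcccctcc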

How the data were processed

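Poly(A)-selected RNA of 3 TKO-2i and 3 TKO-serum samples was analysed, grouped by their labels. The authors deposited the estimated count and the TPM of each transcript in each library, with transcript lengths, in the columns that salmon writes. The quantifier, its index and its use of strand are not given in the sources used here, and the submitters' processing notes name mm10. The sequencing pool of each library is not given either. The paper describes mapping to mm10 with Tophat (V2) and RPKM values per gene, whereas the deposited files hold counts and TPM per transcript. Of 136288 transcripts, 136100 (99.86%) had their identifier in GENCODE M21 (GRCm38). The rest, left out, held 0.0473% to 0.0643% of the counts in a library.

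For each gene the estimated counts of its transcripts were added, rounded to whole numbers, filtered by filterByExpr, normalized by TMM (factors 0.9705 to 1.027) and tested in edgeR 4.0.16 (R 4.3.3) with glmQLFit and glmQLFTest, the medium as the only factor and Benjamini-Hochberg adjustment. The biological coefficient of variation was 0.0902. Standard errors are the absolute log2 fold change divided by the square root of F. TPM was summed per gene. With 3 counts as a floor, the libraries could show 0.0578 to 0.0784 CPM, which covers counting error only. Replicates of a medium differed by more than sampling noise (chi-square per gene of 4.78 to 16.4 in TKO-serum and 7.51 to 48.1 in TKO-2i) and correlated at r of at least 0.988 across genes.

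Members and lists were chosen with earlier results of these data known. Named in full were members that differed by at least 2-fold, the 3 largest rises and falls among those called, the SREBP control genes and the most abundant member of each role. Other genes came from 7 further lists, as the largest rise and fall called at a mean of at least 1 TPM in each, and 6 lists of cell type markers were read. Shared sequence was the share of distinct stretches of 31 bases of a member's most abundant transcript found in transcripts of other genes. Alternatives were DESeq2 1.42.0, its size factors in edgeR, no filter, at least 10 counts in every sample, length-scaled TPM counts, limma 3.58.1 on log2(TPM + 1) and log2(TPM + 0.1), a replicate block, and each sample left out. On simulated data with these depths, edgeR recovered 76 of 100 genes changed by a log2 fold change of 1. It recovered 99 of 100 changed by 2, with 15 false calls. The other genes of the 18177 were unchanged there, whereas 5804 genes were called higher and 5557 lower in the data. These rates therefore need not hold for the comparison of the media. The promoters to be shown were the 2 sterol and 2 fatty acid members with the largest called differences where a window was at hand.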

Additional observations from a re-analysis of the deposited data

How the results depend on the processing

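Of 504 log2 fold changes of the 36 members over 14 alternatives, 463 kept their direction and side of the threshold, 31 lost the call, 5 gained it and 5 turned sign, and 27 members kept both in all 14. The signs that turned were those of Hmgcs1 with limma on log2(TPM + 1) and log2(TPM + 0.1), at -0.04 in both, and of Mvd with the same settings, at -0.05 in both, and without TKO-2i replicate 1, at -0.0032, while without TKO-2i replicate 2 it was 0.18 and was called. The turned values were not called. The cause was not tested.

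Members called higher numbered 24 to 28 over the alternatives. Members called lower numbered 3, and 2 to 4 over the alternatives with all samples (4 with at least 10 counts in every sample and with the block, 2 with length-scaled TPM counts and with limma on either TPM scale) and 1 to 3 with a sample left out. The median log2 fold change of the members was 0.37 with at least 10 counts in every sample, 0.29 with limma on either TPM scale, and 0.37 to 0.42 with a sample left out. The median over all genes moved to -0.06 and -0.08 on those TPM scales. Genes called higher by at least 2-fold fell to 575 with limma on log2(TPM + 1), and those called lower by at least 2-fold to 1171, where the added 1 shrinks the change of low genes, and to 1732 with at least 10 counts in every sample, where fewer genes (15556) were tested.

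Samples with the same replicate number were not paired by the labels, and the correlations of their deviations from the group means were 0.242, 0.329 and 0.014. When the fit took the replicate number as a block, 6444 genes were higher and 6095 lower, and 27 members were higher and 4 lower, Lss being added.

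The quantifier divided shared reads between transcripts and genes, so values of members with near copies are the least certain. There was a single line and 3 samples a medium, and no measure of sterols, fatty acids or proteins was analysed here.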
